A study of Mus musculus with 18 samples.

Results

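Epiblast-like cells (EpiLCs) were compared with the mouse embryonic stem cells (ESCs) from which they are induced, across all genes of 4 of the 18 libraries in the series, the EpiLC and mESC libraries with 2 replicates each. The other libraries hold primordial germ cell-like cells (PGCLCs) at day 4 of induction, cultured PGCLCs and cultured germ cells of mouse embryos. They enter here through the shared estimate of the spread, and the uncultured day-4 PGCLCs also as levels. EpiLCs had been plated on fibronectin in N2B27, a serum-free medium, with activin A at 20 ng/ml, FGF2 at 12 ng/ml and 1% knockout serum replacement. The PGCLC induction described in the labels starts from EpiLCs of day 2, and no other day is given for the EpiLC libraries. ESCs had been kept in N2B27 with leukemia inhibitory factor (LIF, 1000 U/ml) and 2i, the pair of PD0325901, which inhibits the kinase MEK, and CHIR99021, which inhibits the kinase GSK3, on poly-L-ornithine and laminin. Both groups were C57BL/6 cells with the Blimp1-mVenus and Stella-ECFP reporters, and neither was sorted. Cytokines, inhibitors, serum replacement, coating and days of induction therefore all differ between the groups and cannot be told apart. Nothing in the labels says that the replicates of these groups came from separate cultures, so the p-values measure only the spread between libraries, which may be technical.

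Mouse ESCs in 2i and LIF correspond to the naive epiblast of the blastocyst before implantation. There, LIF acts through its receptor and STAT3, and stabilised beta-catenin relieves repression by TCF7L1, which together keep on a network of transcription factors that includes Klf2, Klf4, Esrrb, Tfcp2l1 and Nanog. FGF signalling through MEK and ERK drives cells out of this state, and activin with FGF leads them to formative pluripotency, the state of the epiblast soon after implantation. Formative cells keep Oct4 (Pou5f1), take up Otx2 and Pou3f1 (Oct6), raise the de novo DNA methyltransferases, and can respond to BMP4 by forming germ cells.

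RNA was read by SC3-seq, a sequencing method for the 3′ ends of transcripts, and the deposited values are RPM, the reads of a gene scaled to the same total in every library. The steps between low RPM values correspond to depths of 5249592 and 2584594 reads in the EpiLC libraries and 7547682 and 5405493 reads in the ESC libraries. At these depths 3 reads, taken here as the floor, are worth 0.571 and 1.16 RPM in EpiLCs and 0.397 and 0.555 RPM in ESCs, which covers counting error only. The median absolute log2 difference between the replicates was 0.227 in EpiLCs and 0.193 in ESCs, against 0.426 to 0.601 in the 3 noisiest of the cultured groups. Fold changes below are log2 ratios of RPM + 1 for EpiLC over ESC with the standard error of a limma fit over all 18 libraries, and for genes of low RPM they are smaller than the ratio of the RPM itself. Calls were made at 0.05 on p-values adjusted by Benjamini and Hochberg's method over the 9561 tested genes, and all adjusted p-values are limma's.

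Of the 9561 genes, 1525 were called (16.0%), 678 higher in EpiLCs (7.09%) and 847 lower (8.86%). Of these, 305 higher and 332 lower genes differed by more than 4-fold, and 37 higher and 51 lower genes by more than 16-fold. The 847 lower genes took 2.96% and 3.00% of all RPM in the EpiLC libraries, against 8.88% and 9.05% in the ESC libraries. The 678 higher genes took 5.76% and 5.74% in EpiLCs, against 2.29% and 2.32% in ESCs. These shares describe the genes that the test picked and support nothing further. The median of all tested genes was 0.0093 on the log2 scale, so the groups are centred on each other. The counts of each list below are to be read against these percentages.

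The number of calls depends on the spread that enters the fit. Without the d4c7 FGF2, E9.5c5 FR10 and E9.5c5 CsA replicate 2 libraries, which differ most from their partners, 2821 genes were called (29.5%), 1374 higher and 1447 lower, and all 1525 genes above were among them with the same sign. These libraries are called the 3 noisy libraries below, and they were picked after the values were seen. Leaving out 1 of the 4 libraries gave 840 calls without ESC replicate 1, 880 without ESC replicate 2, 942 without EpiLC replicate 1 and 826 without EpiLC replicate 2. In all 4 of these fits 641 genes were called. The voom variant of limma on the inferred reads, also chosen after the values were seen, called 1897 genes (19.8%). A gene described below as holding was called in each of them. The 2 values of a group did not overlap those of the other in 6531 of the tested genes (68.3%), so a gap between the groups alone says little with 2 libraries each.

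**Figure D1:**
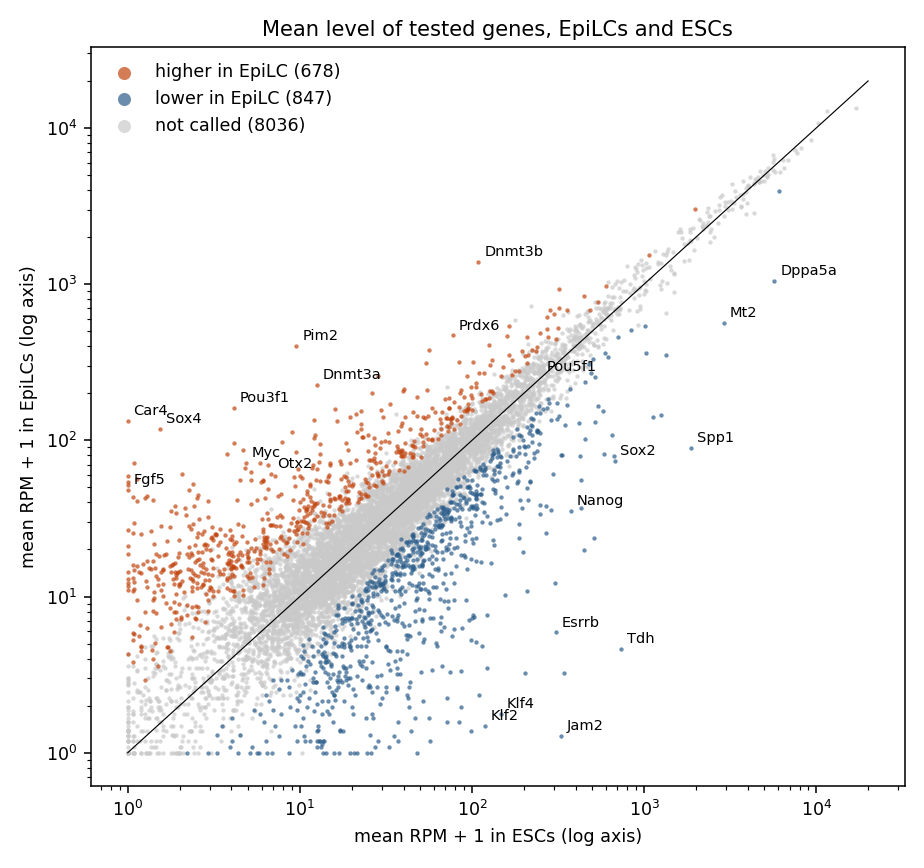
Mean RPM + 1 in EpiLCs (vertical, log axis) against mean RPM + 1 in ESCs (horizontal, log axis) for the 9561 tested genes. The 678 higher genes are orange, the 847 lower genes blue and the others grey, the line marks equal levels, and the labelled genes are among those given in the text.

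Most naive transcription factors were low or near the floor in EpiLCs. Of 16 listed, 15 were tested, 12 were lower and 0 higher, with a median log2 fold change of −3.74, and the same count of 12 was reached with any 1 of the 4 libraries left out. Klf2, a zinc finger factor of the Krüppel-like family (chr8:72319062-72321654 on GRCm38.p6), had 0.571 and 0.387 RPM in EpiLCs, against 119 and 117 RPM in ESCs, a log2 fold change of −6.34 ± 0.25 (adjusted p = 5.58e-11). Klf4, of the same family, had 1.52 and 0 RPM in EpiLCs, against 142 and 151 RPM in ESCs, and the log2 fold change was −6.53 ± 0.49. In both genes the EpiLC values were at or near the floor of 3 reads while each ESC library had at least 117 RPM. Klf5, the third Krüppel-like factor of the naive network, kept 6.86 and 3.48 RPM in EpiLCs, against 80.7 and 75.5 RPM in ESCs (−3.74 ± 0.33).

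The nuclear receptor genes fell with them. Esrrb encodes an orphan receptor that carries self-renewal when LIF or an inhibitor is withdrawn, and it had 5.52 and 4.26 RPM in EpiLCs, against 305 and 310.4 RPM in ESCs (−5.72 ± 0.30, adjusted p = 9.16e-10). Nr5a2, which can activate Oct4, had 0 and 0.387 RPM in EpiLCs, against 59.9 and 51.8 RPM in ESCs (−5.59 ± 0.32). Nr0b1 (Dax1), a corepressor, had 10.3 and 6.58 RPM in EpiLCs, against 109 and 74.2 RPM in ESCs (−3.30 ± 0.53). The loss was thus close to the floor for Nr5a2 and partial for Nr0b1, with no overlap between the groups in either. Tfcp2l1, a target of STAT3, had 1.33 and 3.1 RPM in EpiLCs, against 184 and 218 RPM in ESCs (−6.03 ± 0.32). Tbx3, a T-box factor, had 0.762 and 0 RPM in EpiLCs, against 42.7 and 43.3 RPM in ESCs (−5.05 ± 0.48). Prdm14, which represses FGF signalling and de novo methylation genes in ESCs, had 0.19 and 0 RPM in EpiLCs, against 32.6 and 31.4 RPM in ESCs (−4.92 ± 0.31). For both Tbx3 and Prdm14 EpiLC replicate 2 was listed at 0 and EpiLC replicate 1 was near or under its floor.

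Other members fell only in part. Nanog, a homeodomain factor, had 43.8 and 24.8 RPM in EpiLCs, against 397 and 355 RPM in ESCs (−3.47 ± 0.49, adjusted p = 8.01e-05). Zfp42 (Rex1), the usual reporter gene of the naive state, had 33.1 and 40.6 RPM in EpiLCs, against 261 and 277 RPM in ESCs (−2.84 ± 0.29). Both genes were still well above the floor in each EpiLC library. Stat3 itself had 10.1 and 2.71 RPM in EpiLCs, against 66.8 and 63.1 RPM in ESCs (−3.36 ± 0.39). The 3 tested members that were not called were Rest, Sall1 and Gbx2. Rest, a repressor of neuronal genes, had 68.2 and 65 RPM in EpiLCs, against 123 and 126 RPM in ESCs (−0.90 ± 0.36, adjusted p = 0.104), and it was called without the 3 noisy libraries. Gbx2, a homeodomain gene downstream of STAT3, had 13.1 and 17 RPM in EpiLCs and 13.8 and 13.5 RPM in ESCs, and these values overlapped.

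The promoter of Esrrb is shown because the gene lost nearly all of its RNA and the table holds a STAT-type motif in it. Esrrb has 2 promoters in the RefSeq table, and the first, chr12:86360867-86361166 on the plus strand of GRCm38.p6, runs from 250 bases before the start to 50 after it. Capitals mark the only match to TTCNNNGAA, searched on both strands, and its first base lies 178 bases upstream of the start.
Esrrb promoter: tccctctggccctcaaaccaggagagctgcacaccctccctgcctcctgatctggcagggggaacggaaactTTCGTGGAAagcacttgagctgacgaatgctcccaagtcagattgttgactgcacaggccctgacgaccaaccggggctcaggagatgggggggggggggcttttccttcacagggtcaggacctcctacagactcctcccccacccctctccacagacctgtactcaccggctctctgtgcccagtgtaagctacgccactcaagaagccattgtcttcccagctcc
The same motif occurs in 8.30% of the 32851 mouse promoters in the table, and a match is a description of the letters, not a shown site.

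The wider naive markers followed. Of 22 listed, 19 were tested, 15 were lower and 1 higher, with a median of −3.42 and 14 to 15 lower when 1 library was left out. Tdh, threonine dehydrogenase, an enzyme that mouse ESCs use to feed one-carbon metabolism (chr14:63492347-63509092), had 5.71 and 1.55 RPM in EpiLCs, against 772 and 702 RPM in ESCs (−7.48 ± 0.36, adjusted p = 3.83e-10). Jam2, a junctional adhesion molecule, had 0.571 and 0 RPM in EpiLCs, against 343 and 313 RPM in ESCs, and with a log2 fold change of −8.04 ± 0.61 it led all called genes in either direction at the pseudocount of 1 RPM. The rank depends on that pseudocount, since Car4, described below, had a larger change at 0.1 RPM and under voom and Tdh at 10 RPM. Tcl1, a coactivator of the kinase Akt, had 0.762 and 0 RPM in EpiLCs, against 93.5 and 101 RPM in ESCs (−6.21 ± 0.28). The EpiLC libraries had fewer than 6 RPM of each of these, with no overlap.

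Dppa5a (Esg1), an RNA-binding protein gene, made up the largest fall in RPM of any called gene. It had 987 and 1116 RPM in EpiLCs, against 5602 and 5811 RPM in ESCs (−2.44 ± 0.18), so it was still abundant after a partial fall. Spp1, osteopontin, a secreted phosphoprotein, had 88 and 88.2 RPM in EpiLCs, against 1958 and 1778 RPM in ESCs (−4.39 ± 0.23). Morc1, Fbxo15, Calcoco2, Mylpf, Manba, Pecam1, Ooep, Dppa3, Gdf3 and Trp53inp1 were the other lower members, at log2 fold changes between −4.65 for Morc1 and −0.92 for Gdf3. Only Trp53inp1 among them lost its call when a library was left out, with an adjusted p of 0.0727 without EpiLC replicate 1. The single higher member, Mkrn1, a ubiquitin ligase gene, had 494 and 474 RPM in EpiLCs, against 268 and 228 RPM in ESCs (0.97 ± 0.18). Fgf4, the ligand with which naive cells signal to themselves, had 147 and 116 RPM in EpiLCs, against 244 and 245 RPM in ESCs (−0.90 ± 0.67, adjusted p = 0.446). Its values did not overlap but were not called.

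The core pluripotency genes did not move as one. Of 15 listed, 14 were tested, 2 were higher, 1 lower and 11 not called, with a median of 0.41, and these counts held with any 1 library left out. Pou5f1, which encodes Oct4, had 244 and 264 RPM in EpiLCs and 247 and 255 RPM in ESCs, with overlapping values, a log2 fold change of 0.01 ± 0.20 and a 95% interval of −0.40 to 0.43. That interval spans 0 and does not show that the levels are equal. Sox2, the partner of Oct4, had 68.4 and 77 RPM in EpiLCs, against 641 and 702 RPM in ESCs (−3.19 ± 0.24, adjusted p = 1.04e-07). The lower of the ESC values was thus far above both EpiLC values. Utf1, a chromatin-bound pluripotency factor, had 301 and 332 RPM in EpiLCs, against 106 and 94.2 RPM in ESCs (1.65 ± 0.20). Epcam, an epithelial adhesion molecule, had 131 and 126 RPM in EpiLCs, against 36.3 and 40.1 RPM in ESCs (1.72 ± 0.23). Without the 3 noisy libraries, where 29.5% of tested genes were called, 5 members were higher and 3 lower, with Dppa4, L1td1 and Tcf7l1 added to the higher and Sall4 and Trim28 to the lower.

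Most formative and primed epiblast genes rose. Of 28 listed, 25 were tested, 15 were higher and 2 lower, with a median of 2.49, and 13 to 14 were higher and 1 to 2 lower when 1 library was left out. Fgf5, the classical marker of the early postimplantation epiblast (chr5:98254184-98277033), had 46.1 and 48.8 RPM in EpiLCs and was listed at 0 in both ESC libraries (adjusted p = 1.27e-05). Otx2, a homeodomain factor that redirects Oct4 to new enhancers, had 69.7 and 50.3 RPM in EpiLCs, against 7.55 and 4.07 RPM in ESCs (3.19 ± 0.46). Pou3f1 (Oct6), a POU factor, had 127 and 192 RPM in EpiLCs, against 2.38 and 3.88 RPM in ESCs (5.27 ± 0.76). All 3 genes held their calls with any 1 library left out.

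Pim2, a serine/threonine kinase gene, had 372 and 427 RPM in EpiLCs, against 11 and 6.1 RPM in ESCs (5.44 ± 0.40). Grhl2, a grainyhead factor that opens epithelial enhancers, had 19.4 and 23.6 RPM in EpiLCs, against 0.265 and 1.11 RPM in ESCs (3.78 ± 0.51). Sall2, of the spalt family, had 38.1 and 58 RPM in EpiLCs, against 5.3 and 5.73 RPM in ESCs (2.88 ± 0.55), with an adjusted p of 0.153 at a pseudocount of 0.1 RPM. These genes were all low in ESCs, and the 2 groups were well apart in each. Tead2, which binds the Hippo pathway coactivator Yap, had 277 and 263 RPM in EpiLCs, against 107 and 111 RPM in ESCs (95% interval 0.41 to 2.19 on the log2 scale, adjusted p = 0.0436). Its call was lost without each of the 4 libraries in turn, at adjusted p-values of 0.173 to 0.196.

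A pair of the listed genes went the other way. Nkx1-2, a homeobox gene of the later epiblast and tail bud, was listed at 0 in both EpiLC libraries, against 15 and 14.8 RPM in ESCs (adjusted p = 6.15e-06). Rai14 had 36 and 29.8 RPM in EpiLCs, against 75.5 and 66.4 RPM in ESCs (−1.09 ± 0.27), and its adjusted p was 0.0926 without ESC replicate 1 and 0.099 without EpiLC replicate 2. Of the 3 members that did not pass the filter, Cer1 and Wnt8a had no EpiLC value above 1 RPM. Foxd3, a repressor that acts as cells leave the naive state, had 34.7 and 27.9 RPM in EpiLCs and 19.5 and 19.1 RPM in ESCs (0.66 ± 0.45, adjusted p = 0.39).

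**Figure D2:**
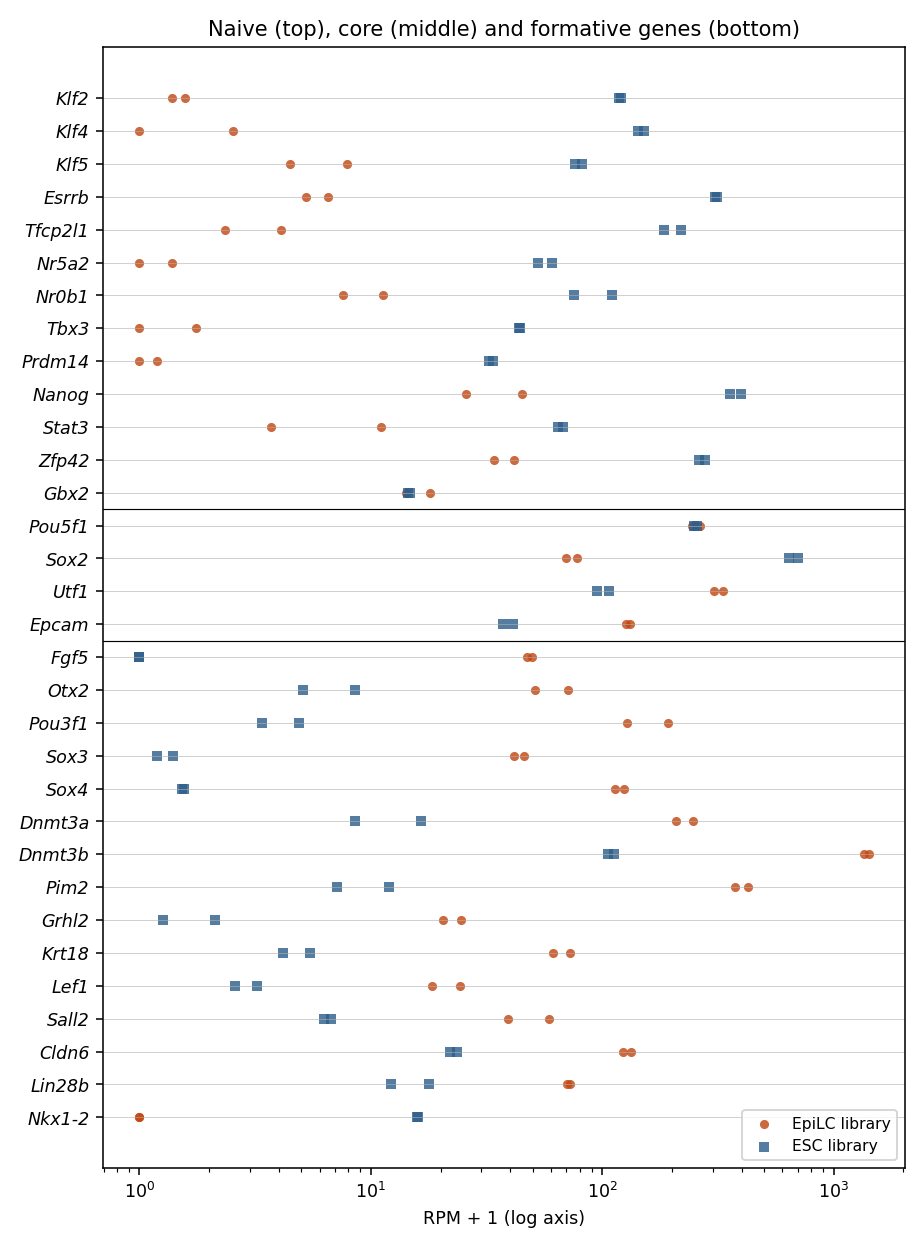
RPM + 1 (log axis) of selected naive genes (top), core pluripotency genes (middle) and formative genes (bottom), with 1 point for each library, EpiLCs in orange circles and ESCs in blue squares. Of the genes shown, the naive genes other than Gbx2 lie to the right in ESCs and the formative genes other than Nkx1-2 to the right in EpiLCs. Pou5f1 overlaps between the groups. Rai14, the other called lower member of the formative list, is not shown. Uncalled members left out include Fst and Tmsb10, which were lower in both EpiLC libraries, and the naive gene Sall1, whose values overlap.

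Genes of the Sox, Zic and Pou families were called in both directions. Of 24 listed, 12 were tested, 4 were higher (Sox3, Sox4, Sox12, Pou3f1) and 3 lower (Sox2, Sox13, Sox15). Sox4, a SoxC factor, had 112 and 123 RPM in EpiLCs, against 0.53 and 0.555 RPM in ESCs (6.26 ± 0.36, adjusted p = 2.59e-09). Sox3, the closest relative of Sox2, had 40.6 and 44.9 RPM in EpiLCs, against 0.397 and 0.185 RPM in ESCs (5.08 ± 0.50). The ESC values of both lie at about the floor. Sox15, which binds with Oct4 in ESCs, had 3.62 and 10.8 RPM in EpiLCs, against 27.6 and 27.2 RPM in ESCs (−1.94 ± 0.41), with an adjusted p of 0.0852 without EpiLC replicate 1. Sox12 and Sox13 lost their calls without each of the 4 libraries, at adjusted p-values of 0.063 to 0.0926 for Sox12 and 0.0539 to 0.257 for Sox13. In all 4 libraries 11 of the 24 listed genes were under 10 RPM.

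In the DNA methylation machinery the genes called higher were de novo enzymes. Of 15 listed genes, 11 were tested, 2 were higher and 1 lower. Dnmt3b (chr2:153649411-153687730) had 1414 and 1352 RPM in EpiLCs, against 111 and 105 RPM in ESCs (3.67 ± 0.32, adjusted p = 4.27e-07), the largest rise in RPM of any called gene. Dnmt3a (chr12:3801559-3914443) had 206 and 245 RPM in EpiLCs, against 7.55 and 15.5 RPM in ESCs (4.25 ± 0.40). Both de novo methyltransferases were higher in each EpiLC library than in either ESC library, and both calls held. Dnmt3l, their cofactor without catalytic activity, had 52.6 and 59.6 RPM in EpiLCs and 67.7 and 59.4 RPM in ESCs (−0.18 ± 0.58, adjusted p = 0.902). Dnmt1, which copies methylation at replication, had 97 and 104 RPM in EpiLCs and 125 and 117 RPM in ESCs (−0.27 ± 0.25, adjusted p = 0.564). Uhrf1, which brings Dnmt1 to newly copied DNA, had 98.7 and 112 RPM in EpiLCs and 178 and 203 RPM in ESCs (−0.85 ± 0.41, adjusted p = 0.185).

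On the side of demethylation, Tet1, a dioxygenase that oxidises methylcytosine, had 101 and 106 RPM in EpiLCs, against 169 and 174 RPM in ESCs (−0.72 ± 0.20, adjusted p = 0.0211). The Tet1 call was lost without each of the 4 libraries in turn, at adjusted p-values of 0.0882 to 0.128. Tet2, a relative of Tet1, did not pass the filter, with 1.9 and 1.55 RPM in EpiLCs and 9.27 and 9.43 RPM in ESCs. Tet3, which also missed the filter, had 6.1 and 2.32 RPM in EpiLCs and was listed at 0 in both ESC libraries. Neither Tet2 nor Tet3 was tested, and the values are given as levels.

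The Dnmt3b promoter is printed as that of the gene with the largest gain in reads, with each CG pair in capitals since the enzyme it encodes acts on such pairs. It covers chr2:153649199-153649498 on the plus strand of GRCm38.p6 and holds 30 CG pairs.
Dnmt3b promoter: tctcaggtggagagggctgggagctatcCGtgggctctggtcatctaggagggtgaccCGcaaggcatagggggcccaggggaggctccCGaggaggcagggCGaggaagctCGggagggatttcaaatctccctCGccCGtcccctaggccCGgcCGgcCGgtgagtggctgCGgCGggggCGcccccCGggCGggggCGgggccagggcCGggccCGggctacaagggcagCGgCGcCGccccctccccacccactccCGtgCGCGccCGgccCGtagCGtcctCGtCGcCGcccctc
Over the promoters of the same length, the median number of CG pairs was 21 for 535 higher genes, 18 for 675 lower genes and 22 for 7748 tested genes with a promoter in the table. These medians are a description and were not tested.

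In the fit that made the calls, the called histone methylation genes were lower. Polycomb repressive complex 2, which places methylation on lysine 27 of histone H3, had 10 of 11 listed genes tested, 3 lower and 0 higher, with a median of −0.39. Eed, a core subunit, had 82.3 and 105 RPM in EpiLCs, against 263 and 228 RPM in ESCs (−1.39 ± 0.24, adjusted p = 0.000517). Mtf2, which binds CG-rich DNA, had 91.1 and 91.7 RPM in EpiLCs, against 209 and 210.2 RPM in ESCs (−1.19 ± 0.20). Suz12, a further core subunit, had 71.4 and 70 RPM in EpiLCs, against 159 and 129 RPM in ESCs (−1.00 ± 0.26). The Suz12 call was lost without ESC replicate 1, EpiLC replicate 1 or EpiLC replicate 2, at adjusted p-values of 0.142, 0.076 and 0.0912. Ezh2, the catalytic subunit, was not called, with 167 and 125 RPM in EpiLCs and 204 and 179 RPM in ESCs (−0.40 ± 0.39, adjusted p = 0.583). Of 13 listed enzymes that write or erase methylation on lysine 9 of histone H3, 10 were tested. The 2 called, where 16.0% of all tested genes were, were the lower demethylases Kdm3a (−1.49 ± 0.32) and Kdm3b (−0.97 ± 0.29). Jmjd1c of the same list had 109 and 89.4 RPM in EpiLCs, against 45.6 and 40.9 RPM in ESCs (1.18 ± 0.61, adjusted p = 0.226). It was called higher without the 3 noisy libraries (adjusted p = 0.00188) and under voom (adjusted p = 0.0115). Kdm3b lost its call without each of the 4 libraries (0.1 to 0.156), and Kdm3a without ESC replicate 1 (0.0603).

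Signalling genes were read by pathway, since the groups differ in FGF2, the MEK inhibitor, LIF, the GSK3 inhibitor and activin A at once. Of 22 listed FGF and MAPK response genes, 21 were tested, 6 were higher and 0 lower, with a median of 0.89. With 1 of the 4 libraries left out 4 to 5 were higher and 0 lower, and without the 3 noisy libraries 10 were higher and 0 lower. Dusp4, a phosphatase that takes phosphate off ERK and is induced by it, had 39.4 and 54.2 RPM in EpiLCs, against 1.06 and 1.48 RPM in ESCs (4.39 ± 0.23, adjusted p = 9.1e-10). Dusp6, the ERK phosphatase of the cytoplasm, had 17 and 17 RPM in EpiLCs, against 1.59 and 0.925 RPM in ESCs (3.01 ± 0.62), with an adjusted p of 0.12 at a pseudocount of 0.1 RPM. Myc, a growth regulator, had 65.3 and 76.6 RPM in EpiLCs, against 3.84 and 3.88 RPM in ESCs (3.88 ± 0.59). These calls held with any 1 library left out, and the groups were far apart in each.

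Etv4, an ETS factor, had 5.33 and 7.35 RPM in EpiLCs, against 1.72 and 0.37 RPM in ESCs (1.91 ± 0.40), with an adjusted p of 0.0634 without ESC replicate 2. Lin28b, which blocks the maturation of let-7 microRNAs, had 71.4 and 69.6 RPM in EpiLCs, against 11.3 and 16.8 RPM in ESCs (2.27 ± 0.53), with an adjusted p of 0.0783 without ESC replicate 1. Ier3, an immediate early gene, had 13.5 and 17.8 RPM in EpiLCs, against 6.23 and 4.44 RPM in ESCs (95% interval 0.51 to 2.29 on the log2 scale), and its call was lost without each of the 4 libraries (0.0757 to 0.22). Sprouty genes encode inhibitors induced by ERK, and those with a value below were not called. Spry2 had 25.7 and 21.3 RPM in EpiLCs, against 10.3 and 8.51 RPM in ESCs (adjusted p = 0.0698). Spry4 had 7.24 and 4.64 RPM in EpiLCs, against 1.72 and 2.04 RPM in ESCs (adjusted p = 0.122). Without the 3 noisy libraries both were called higher, at adjusted p-values of 0.0166 for Spry2 and 0.0375 for Spry4. Under voom Spry2 was called (adjusted p = 0.00791) and Spry4 was not (adjusted p = 0.0944). Etv5, a relative of Etv4, had 187 and 159 RPM in EpiLCs and 158 and 155 RPM in ESCs (adjusted p = 0.813). So not all of the response genes were called, and Etv5 was abundant in both groups.

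Of 13 listed FGF ligands and receptors, 9 were tested, 3 were higher and 2 lower. Besides Fgf5, the ligand gene Fgf15 was higher, with 23 and 25.1 RPM in EpiLCs, against 0.397 and 0 RPM in ESCs (4.41 ± 0.42). Fgf10 was listed at 0 in both EpiLC libraries, against 11 and 20.5 RPM in ESCs (adjusted p = 1.6e-05). Fgf17 had 0.952 and 3.1 RPM in EpiLCs, against 11.5 and 16.3 RPM in ESCs (−2.38 ± 0.56), with adjusted p-values of 0.0746 without ESC replicate 2 and 0.1 without EpiLC replicate 1. Fgfr1, the main FGF receptor of these cells, had 69.5 and 58.4 RPM in EpiLCs, against 37.9 and 35.3 RPM in ESCs (0.78 ± 0.24), and lost its call without each of the 4 libraries (0.0777 to 0.218). The ligand genes thus differed in both directions, and 7 of the 13 listed genes were under 10 RPM in all 4 libraries.

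The LIF and STAT3 pathway genes that were called were lower in EpiLCs. All 16 listed genes were tested, 8 were lower and 0 higher, with a median of −0.89, and 7 to 8 were lower when 1 library was left out. The receptor chains were among them. Lifr, the LIF receptor, had 4 and 7.35 RPM in EpiLCs, against 28.6 and 34.8 RPM in ESCs (−2.33 ± 0.41). Il6st (gp130), the chain that signals with it, had 6.67 and 4.26 RPM in EpiLCs, against 41.3 and 36.8 RPM in ESCs (−2.66 ± 0.30, adjusted p = 8.21e-06). Both chains and Stat3 were thus lower in each EpiLC library than in either ESC library. Of the targets, Socs3, the feedback inhibitor of the receptor, had 1.52 and 3.1 RPM in EpiLCs, against 55.2 and 44.2 RPM in ESCs (−3.97 ± 0.51, adjusted p = 3.51e-05). Bcl3, a coregulator of NF-kappaB, had 0.762 and 1.93 RPM in EpiLCs, against 35.4 and 46.2 RPM in ESCs (−4.19 ± 0.47). Klf4 and Tfcp2l1, described above, belong to this list too. Gab1, an adaptor protein gene, had 85.1 and 72.4 RPM in EpiLCs, against 175 and 182 RPM in ESCs (−1.18 ± 0.26), with an adjusted p of 0.0589 without EpiLC replicate 2. Pim1, a kinase gene induced by STAT3, was not called, with 20.2 and 24.4 RPM in EpiLCs, against 7.95 and 7.03 RPM in ESCs (1.45 ± 0.51, adjusted p = 0.0641).

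The Socs3 promoter, chr11:117969317-117969616 on the minus strand of GRCm38.p6, is given because Socs3 is a direct target of STAT3. Capitals mark its single match to TTCNNNGAA, the motif searched in Esrrb, with the first base 154 bases upstream of the start.
Socs3 promoter: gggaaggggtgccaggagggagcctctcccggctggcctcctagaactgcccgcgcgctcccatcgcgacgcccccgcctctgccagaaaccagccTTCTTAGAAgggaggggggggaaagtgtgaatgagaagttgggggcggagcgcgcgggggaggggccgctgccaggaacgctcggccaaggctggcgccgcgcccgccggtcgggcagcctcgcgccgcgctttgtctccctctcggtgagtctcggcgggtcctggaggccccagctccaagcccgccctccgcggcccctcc
No measure of STAT3 binding is part of these data.

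Wnt target genes and regulators were called in both directions. Of 25 listed targets and regulators, 17 were tested, 6 were lower and 3 higher, and 5 lower and 2 higher were counted with any 1 library left out. Axin2, the feedback inhibitor that is read as the standard Wnt target, had 0 and 0.387 RPM in EpiLCs, against 9.41 and 16.3 RPM in ESCs (−3.51 ± 0.59, adjusted p = 0.000429). Sp5, a zinc finger factor induced by beta-catenin, was listed at 0 in both EpiLC libraries, against 36.7 and 57 RPM in ESCs (adjusted p = 1.41e-07). Cdx1, a caudal homeobox gene, was likewise listed at 0 in both EpiLC libraries, against 17.1 and 22.2 RPM in ESCs (adjusted p = 4.36e-06). Notum, a secreted enzyme that inactivates Wnt proteins, had 0.381 and 0 RPM in EpiLCs, against 27.8 and 26.8 RPM in ESCs (−4.59 ± 0.45). These feedback and target genes were at the floor in EpiLCs, with no overlap. Sfrp1, a secreted Wnt antagonist, had 38.5 and 36.8 RPM in EpiLCs, against 252 and 246 RPM in ESCs (−2.69 ± 0.42).

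The higher members were Lef1, Fzd2 and Fzd7. Lef1, a nuclear partner of beta-catenin, had 17.3 and 23.2 RPM in EpiLCs, against 1.59 and 2.22 RPM in ESCs (2.87 ± 0.47). Fzd2, a Wnt receptor, had 55.4 and 54.2 RPM in EpiLCs, against 4.77 and 5.36 RPM in ESCs (3.20 ± 0.52). A further receptor, Fzd7, had 72.2 and 68.1 RPM in EpiLCs, against 25.7 and 27.6 RPM in ESCs (1.36 ± 0.35), and lost its call without each of the 4 libraries (0.0642 to 0.0881). Among the lower members, Porcn, the acyltransferase that makes Wnt proteins fit for secretion, had 2.86 and 2.71 RPM in EpiLCs, against 12.2 and 11.8 RPM in ESCs (−1.78 ± 0.43), and also lost its call in each of those fits (0.05 to 0.0622). Nkd1, a feedback inhibitor that did not pass the filter, had 3.05 and 5.42 RPM in EpiLCs, against 0.132 and 0.74 RPM in ESCs, and it was not tested. Tcf7l1, the repressor that GSK3 inhibition relieves, had 103 and 108 RPM in EpiLCs, against 62.4 and 65.7 RPM in ESCs (0.71 ± 0.53, adjusted p = 0.438), and was called without the 3 noisy libraries.

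The Sp5 promoter is shown because the gene was listed at 0 in EpiLCs and holds a motif of the TCF and LEF factors that bind beta-catenin. It covers chr2:70474673-70474972 on the plus strand of GRCm38.p6. Capitals mark the single match to CTTTGAT on either strand, which starts 104 bases upstream of the start site.
Sp5 promoter: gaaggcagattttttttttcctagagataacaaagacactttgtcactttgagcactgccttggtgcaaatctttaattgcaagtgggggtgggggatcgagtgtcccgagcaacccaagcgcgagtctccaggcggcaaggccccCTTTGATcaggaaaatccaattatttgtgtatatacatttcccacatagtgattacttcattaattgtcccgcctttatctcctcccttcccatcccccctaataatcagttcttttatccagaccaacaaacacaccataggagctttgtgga
That motif occurs in 3.73% of the 32851 promoters. Counted by gene, with a match in any of its promoters, it occurs in 2.06% of higher genes and 3.11% of lower genes. The share by gene was 2.92% for tested genes and 4.29% for all genes with a promoter.

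Of 19 listed Nodal and activin pathway genes, 16 were tested, 3 were higher and 2 lower. Skil (SnoN), a corepressor induced by the pathway, had 128 and 107 RPM in EpiLCs, against 20.9 and 22.4 RPM in ESCs (2.39 ± 0.35). Lefty2, a secreted inhibitor of Nodal, had 30.5 and 35.2 RPM in EpiLCs, against 259 and 237 RPM in ESCs (−2.88 ± 0.41). Its neighbour Lefty1 had 174 and 164 RPM in EpiLCs, against 121 and 116 RPM in ESCs (0.51 ± 0.35, adjusted p = 0.4). So Skil and Lefty2, both induced by the pathway, were called in opposite directions. Nodal had 11.2 and 8.51 RPM in EpiLCs, against 19.7 and 17.8 RPM in ESCs (−0.87 ± 0.38, adjusted p = 0.142). Pcsk6, a convertase that cuts the Nodal precursor, was lower (−1.98 ± 0.42), and Foxh1, the DNA-binding partner of the SMADs, was higher (0.73 ± 0.22) but lost its call without each of the 4 libraries (0.105 to 0.194).

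Of 16 listed BMP pathway genes, 11 were tested and 2 were lower. Id4, of the Id family of BMP targets, had 0.19 and 0.387 RPM in EpiLCs, against 23.5 and 25.9 RPM in ESCs (−4.32 ± 0.48). Bmp7, a ligand gene, had 4.95 and 3.87 RPM in EpiLCs, against 12.9 and 21.1 RPM in ESCs (−1.70 ± 0.29). Id3, of the same family, had 38.7 and 46.4 RPM in EpiLCs, against 56.4 and 49.8 RPM in ESCs (−0.32 ± 0.28, adjusted p = 0.538). Id3 was thus not called with Id4, and both calls of the list held with any 1 library left out.

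**Figure D3:**
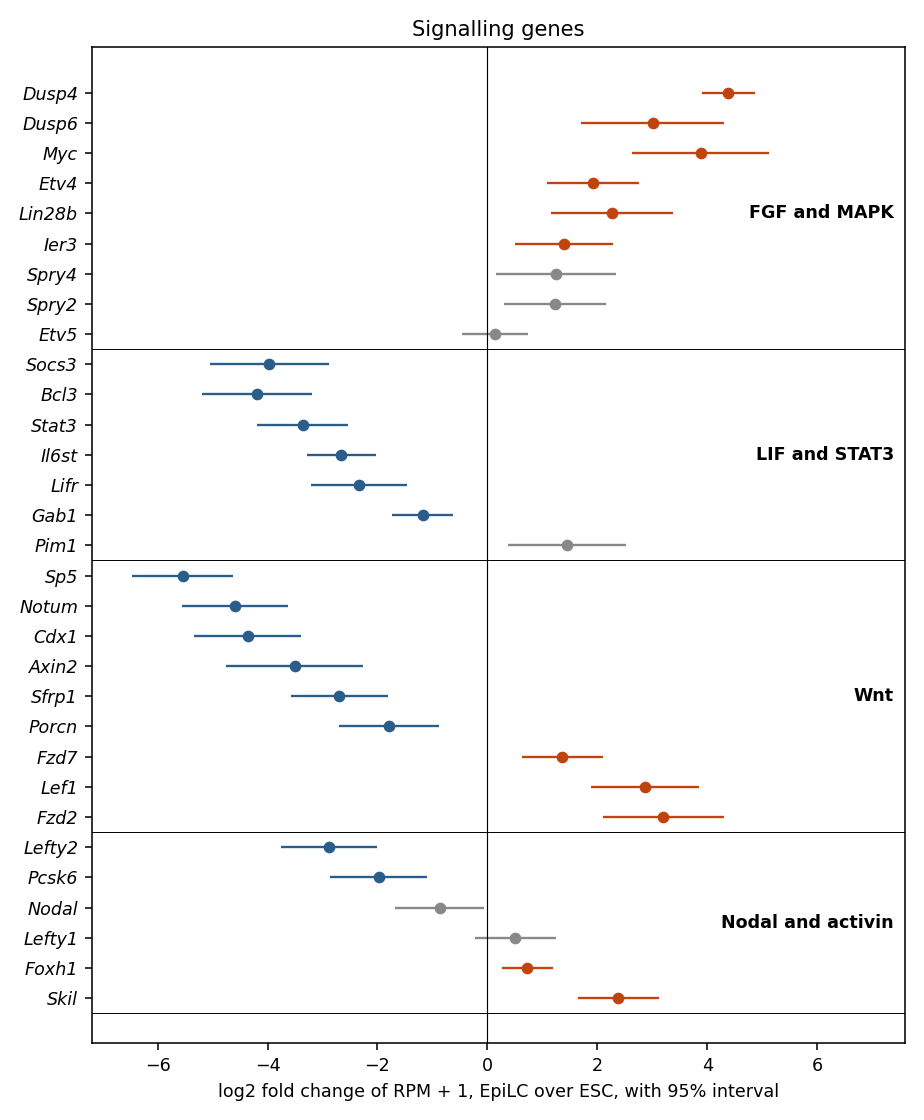
Log2 fold change of RPM + 1 for EpiLC over ESC (horizontal) with its 95% interval for a selection of the genes of 4 pathways, all given in the text. Called genes are orange (higher in EpiLCs) or blue (lower) and uncalled genes grey. Of the genes shown, those of FGF and MAPK lie to the right of 0 and those of LIF and STAT3 other than Pim1 to the left. The Wnt and Nodal genes lie on both sides. Uncalled members on the other side of 0 are not shown. They include Dusp1 and Spred2 of the FGF and MAPK list, and Ptpn11, Jak1, Socs2 and Gbx2 of the LIF and STAT3 list.

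Most early germ cell genes were low in EpiLCs. Of 20 listed, 18 were tested, 12 were lower and 0 higher, with a median of −2.77, and 12 to 13 were lower with 1 library left out. Tfap2c, a factor of germ cell specification, had 0.571 and 0 RPM in EpiLCs, against 37.4 and 31.4 RPM in ESCs (−4.81 ± 0.26, adjusted p = 1.05e-09). Prdm1 (Blimp1), the repressor that starts the germ cell programme, had 0 and 0.387 RPM in EpiLCs, against 11.1 and 9.8 RPM in ESCs (−3.28 ± 0.43). Dppa3 (Stella) had 21.7 and 34.8 RPM in EpiLCs, against 154 and 217 RPM in ESCs (−2.69 ± 0.24). Tfap2c and Prdm1 were at or under the floor in EpiLCs and Dppa3 was not. Ifitm1, a surface protein gene, had 22.5 and 22.8 RPM in EpiLCs, against 509 and 513 RPM in ESCs (−4.44 ± 0.16, adjusted p = 2.27e-11). Alpl, the alkaline phosphatase used to stain both ESCs and germ cells, had 5.33 and 5.42 RPM in EpiLCs, against 68 and 66.8 RPM in ESCs (−3.42 ± 0.24). Kit, the receptor of stem cell factor, had 6.48 and 5.8 RPM in EpiLCs, against 56.7 and 44.4 RPM in ESCs (−2.84 ± 0.25). Klf2, Tcl1 and Prdm14 belong to both this list and a naive list, so the lists are not independent.

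Later germ cell genes whose promoters are silenced by methylation in somatic cells were mostly higher where they were called. Of 24 listed, 18 were tested, 6 were higher, where 7.09% of all tested genes were, and 1, Zfp42, was lower, with a median of 0.51. The count of higher genes fell to 3 without ESC replicate 1, 3 without ESC replicate 2, 1 without EpiLC replicate 1 and 2 without EpiLC replicate 2. It was 3 at a pseudocount of 10 RPM, and with the 4 libraries alone 3 were higher and 2 lower, where 21.7% and 21.0% of all tested genes were. Sycp3, a component of the meiotic chromosome axis, had 69 and 60.4 RPM in EpiLCs, against 8.88 and 8.69 RPM in ESCs (2.74 ± 0.64, adjusted p = 0.00653), with an adjusted p of 0.059 without EpiLC replicate 1. Tdrkh, a tudor protein of the piRNA pathway, had 7.05 and 6.96 RPM in EpiLCs, against 0.53 and 1.29 RPM in ESCs (2.10 ± 0.37), and it alone of the 6 held its call in every such fit. Mael, a piRNA pathway gene, had 24.6 and 27.9 RPM in EpiLCs, against 3.05 and 1.85 RPM in ESCs (3.00 ± 0.92), and lost its call without each of the 4 libraries (0.107 to 0.189). Ddx4 (Vasa), a germ cell RNA helicase, had 18.7 and 18.6 RPM in EpiLCs, against 1.99 and 9.99 RPM in ESCs (1.78 ± 0.58, adjusted p = 0.0463). Its ESC values lay far apart from each other, and its adjusted p was 0.526, 0.182 and 0.187 without ESC replicate 1, EpiLC replicate 1 and EpiLC replicate 2. Mov10l1 and Slc25a31 were the other higher members, at no more than 3.81 RPM in any EpiLC or ESC library. Tdrkh, Mov10l1 and Slc25a31 were all under 10 RPM in the EpiLC and ESC libraries. They passed the filter of 10 RPM in at least 2 libraries only through other groups of the series. Dazl, an RNA-binding germ cell factor, had 12.2 and 11.2 RPM in EpiLCs and 11.5 and 5.92 RPM in ESCs (0.45 ± 0.78, adjusted p = 0.786).

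Of 25 listed imprinted genes, 17 were tested, 6 were higher and 2 lower, and with any 1 library left out 4 were higher and 1 to 2 lower. Snrpn had 123 and 110.3 RPM in EpiLCs, against 46.2 and 39.2 RPM in ESCs (1.43 ± 0.24). Ndn, in the same domain as Snrpn, had 22.1 and 14.3 RPM in EpiLCs, against 0.927 and 4.81 RPM in ESCs (2.49 ± 0.41). Mest had 22.5 and 25.9 RPM in EpiLCs, against 2.65 and 1.85 RPM in ESCs (2.96 ± 0.65). Plagl1, a zinc finger gene, went down, with 1.71 and 2.71 RPM in EpiLCs, against 39.2 and 31.6 RPM in ESCs (−3.51 ± 0.56). These 4 calls held. Grb10, an adaptor gene, had 154 and 155 RPM in EpiLCs, against 30.7 and 26.6 RPM in ESCs (2.39 ± 0.57), with adjusted p-values of 0.0671, 0.0556 and 0.0608 without ESC replicate 2, EpiLC replicate 1 and EpiLC replicate 2. The allele of origin is not read by these data.

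Epithelial genes moved in parts. Of 19 listed cadherins, claudins, keratins and related genes, 16 were tested, 6 were higher and 3 lower, with 4 to 6 higher and 1 to 2 lower when 1 library was left out. Krt18, a keratin of simple epithelia, had 60.4 and 71.6 RPM in EpiLCs, against 3.18 and 4.44 RPM in ESCs (3.81 ± 0.42). Cldn6, a claudin of tight junctions, had 121 and 132 RPM in EpiLCs, against 22.5 and 20.9 RPM in ESCs (2.49 ± 0.36). Cldn7, of the same family, had 89.7 and 79.7 RPM in EpiLCs, against 26.4 and 21.1 RPM in ESCs (1.80 ± 0.30). With Epcam these 4 calls held, while Cdh3 and Ocln each lost theirs without 2 or more of the libraries. Cdh3, P-cadherin, had adjusted p-values of 0.161, 0.103 and 0.0506 without ESC replicate 2, EpiLC replicate 1 and EpiLC replicate 2, and Ocln, occludin, had 0.213 and 0.132 without ESC replicate 2 and EpiLC replicate 1.

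Cdh1, E-cadherin, had 598 and 542 RPM in EpiLCs, against 454 and 492 RPM in ESCs (0.27 ± 0.32, adjusted p = 0.661). Vim, vimentin, had 93.2 and 68.1 RPM in EpiLCs, against 589 and 583 RPM in ESCs (−2.86 ± 0.63), with an adjusted p of 0.0598 without EpiLC replicate 2. Krt42 had 0.762 and 1.55 RPM in EpiLCs, against 54.5 and 47.2 RPM in ESCs (−4.61 ± 0.55). Cldn4, the remaining lower member, lost its call without each of the 4 libraries (0.0512 to 0.21). The lower members thus include a filament protein of mesenchymal cells and a keratin.

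Of 22 listed matrix and integrin genes, 19 were tested, 7 were lower and 3 higher, and 6 lower and 2 higher were counted with any 1 library left out. Fn1, fibronectin, had 140.0 and 139 RPM in EpiLCs, against 1136 and 1118 RPM in ESCs (−3.00 ± 0.49), while EpiLCs were plated on fibronectin protein and ESCs on laminin. Lama1, a laminin chain of basement membranes, had 1.71 and 0.774 RPM in EpiLCs, against 42.3 and 40.7 RPM in ESCs (−4.27 ± 0.54). Nid1, nidogen, which links laminin to collagen IV, had 4 and 1.16 RPM in EpiLCs, against 72.5 and 59 RPM in ESCs (−4.34 ± 0.57). Sparc, a matrix glycoprotein, had 58.5 and 50.3 RPM in EpiLCs, against 449 and 412 RPM in ESCs (−2.96 ± 0.22). These basement membrane and matrix genes were lower in both EpiLC libraries, and the calls held. Col18a1, the collagen chain that holds endostatin, was higher, with 283 and 323 RPM in EpiLCs, against 129 and 124 RPM in ESCs (1.26 ± 0.17). Itga3, an integrin chain that binds laminin, had 11.4 and 10.8 RPM in EpiLCs, against 1.72 and 1.29 RPM in ESCs (2.28 ± 0.49). Among the lower members Lgals3 lost its call without each of the 4 libraries (0.104 to 0.167), and so did Col4a2 among the higher ones (0.0659 to 0.187).

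Of 22 glycolysis genes, all tested, 3 were higher and 4 lower. The lower ones were Ldhb, Pfkp, Hk1 and Slc2a3, and their calls held with any 1 library left out. Ldhb, a lactate dehydrogenase chain, had 143 and 162 RPM in EpiLCs, against 581 and 577 RPM in ESCs (−1.92 ± 0.25). Slc2a3, the glucose transporter GLUT3, had 380.4 and 346 RPM in EpiLCs, against 991 and 1064 RPM in ESCs (−1.50 ± 0.20). Of the higher ones, Slc16a3, the lactate exporter MCT4, had 83.2 and 82.8 RPM in EpiLCs, against 7.29 and 9.8 RPM in ESCs (3.15 ± 0.68). Bnip3, which marks mitochondria for removal and is induced by low oxygen, had 102 and 112 RPM in EpiLCs, against 19.9 and 27.9 RPM in ESCs (2.13 ± 0.34). Slc2a1, the glucose transporter GLUT1, had 229 and 236 RPM in EpiLCs, against 91.6 and 117 RPM in ESCs (1.16 ± 0.29), with adjusted p-values of 0.119, 0.0619 and 0.0767 without ESC replicate 1, EpiLC replicate 1 and EpiLC replicate 2. So within the glucose transporter pair GLUT1 and GLUT3, and among lactate genes, members were called in opposite directions. Ldha, the other lactate dehydrogenase chain, had 597 and 575 RPM in EpiLCs, against 177 and 177 RPM in ESCs (1.72 ± 0.62, adjusted p = 0.0712). It was called without the 3 noisy libraries, where 9 members were higher and 4 lower.

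Of 22 tested oxidative phosphorylation genes, 1 was lower (Cox6a1, −0.74 ± 0.23) and 1 higher (Cycs, 0.71 ± 0.21), and 0 in either direction with any 1 library left out. Without the 3 noisy libraries 9 were lower and 1 higher, where 15.1% of all tested genes were lower and 14.4% higher. Of 18 threonine, serine and one-carbon enzymes, all tested, Tdh and Gcat were lower and Mthfd2 was higher, the last losing its call without each of the 4 libraries (0.0536 to 0.157). That share of calls is near the 16.0% over all tested genes. Gcat, the enzyme that follows Tdh in threonine breakdown, had 131 and 100.2 RPM in EpiLCs, against 209 and 225 RPM in ESCs (−0.91 ± 0.24), with adjusted p-values of 0.0706, 0.113 and 0.174 without ESC replicate 1, ESC replicate 2 and EpiLC replicate 2. The fall of Tdh was thus not matched in size by the next step, and Gldc, of the glycine cleavage system, had 250.1 and 224 RPM in EpiLCs, against 279 and 238 RPM in ESCs (−0.12 ± 0.29, adjusted p = 0.853). Of 22 listed sterol synthesis genes, 21 were tested, 3 were higher and 1 lower, and 1 higher and 1 lower with any 1 library left out. Fdps, farnesyl diphosphate synthase, had 598 and 633 RPM in EpiLCs, against 250.4 and 291 RPM in ESCs (1.19 ± 0.20). Ebp, a sterol isomerase, had 9.52 and 10.8 RPM in EpiLCs, against 49.6 and 49.8 RPM in ESCs (−2.18 ± 0.29). Hmgcs1 and Lss were the other higher members, and each lost its call without any 1 of the 4 libraries (0.0519 to 0.11 for Hmgcs1 and 0.0638 to 0.131 for Lss).

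Of 22 listed antioxidant and glutathione genes, 21 were tested, 4 were higher and 7 lower. With 1 library left out 1 to 2 were higher and 4 to 6 lower, the fewest without EpiLC replicate 1 for the higher and without EpiLC replicate 2 for the lower. Prdx6, a peroxiredoxin with phospholipase activity, had 478 and 460.4 RPM in EpiLCs, against 70.8 and 82.7 RPM in ESCs (2.60 ± 0.18, adjusted p = 4.24e-08). Hspb1, a small heat shock protein, had 28 and 41.4 RPM in EpiLCs, against 289.9 and 287 RPM in ESCs (−3.05 ± 0.39). Sod2, the mitochondrial superoxide dismutase, had 127 and 130.0 RPM in EpiLCs, against 429 and 409.6 RPM in ESCs (−1.70 ± 0.22). Gpx4, which reduces lipid peroxides, had 244 and 229.8 RPM in EpiLCs, against 436 and 463 RPM in ESCs (−0.92 ± 0.16). These 4 calls held.

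Of 21 listed cyclins, cyclin-dependent kinases and their inhibitors, 14 were tested and 2 were lower, a share near the 16.0% called over all tested genes. Cdkn1a (p21), an inhibitor induced by p53, had 5.14 and 7.35 RPM in EpiLCs, against 47.4 and 64 RPM in ESCs (−2.97 ± 0.32). Ccnd3, cyclin D3, had 9.52 and 6.58 RPM in EpiLCs, against 20.5 and 17.8 RPM in ESCs (−1.17 ± 0.28), with adjusted p-values of 0.0806 without ESC replicate 1 and 0.11 without EpiLC replicate 2.

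**Figure D4:**
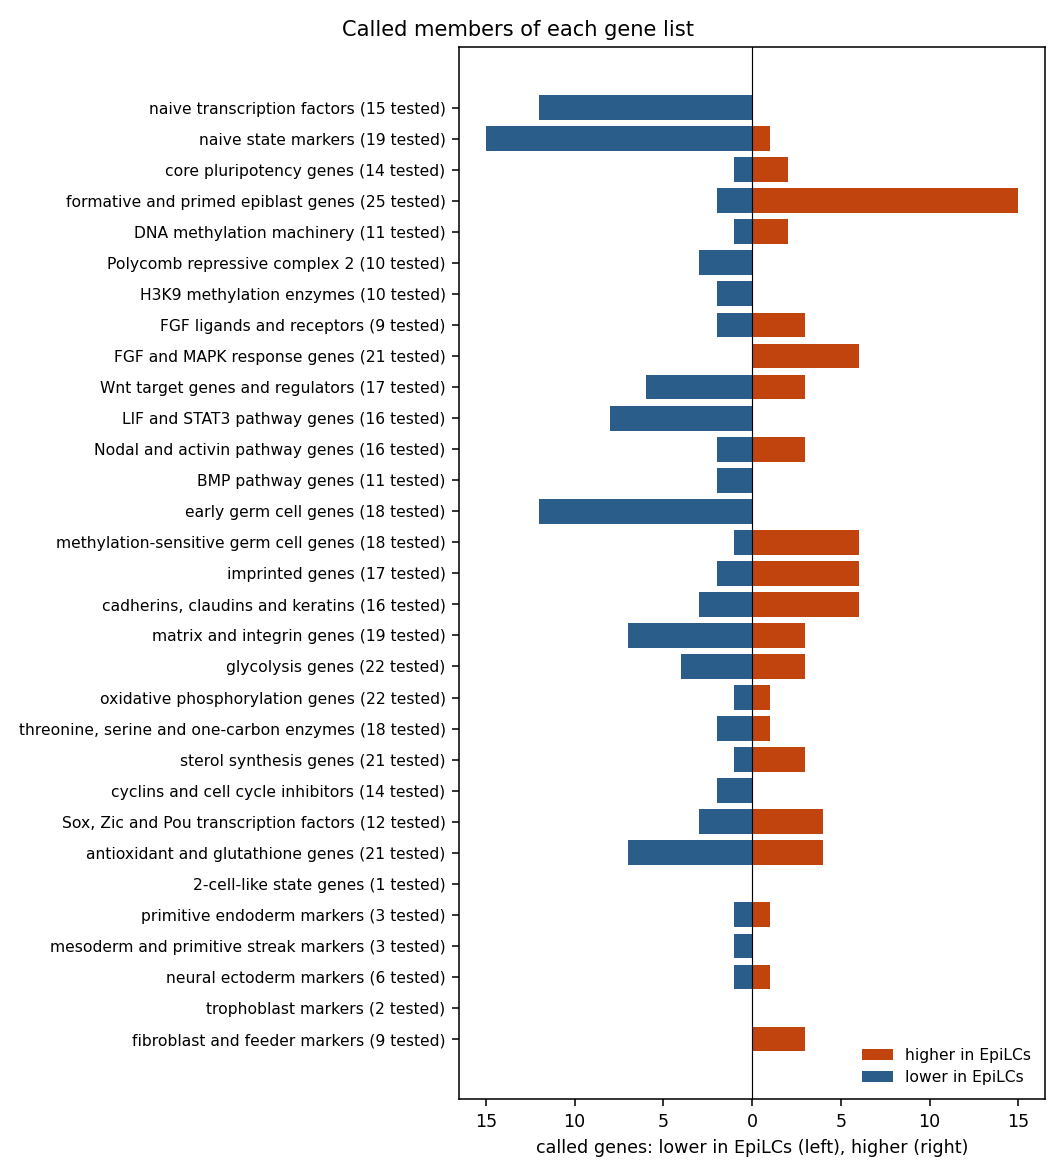
Number of called genes in each gene list (horizontal), higher in EpiLCs to the right in orange and lower in EpiLCs to the left in blue, with the number tested after each name. The naive and early germ cell lists lie almost wholly to the left and the formative list mostly to the right (15 against 2). The oxidative phosphorylation, one-carbon and sterol lists have few calls in either direction. Glycolysis (3 higher and 4 lower of 22 tested) and antioxidant genes (4 higher and 7 lower of 21 tested) have more, on both sides.

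The genes with the largest changes include many that are in none of the lists. Of the 15 higher genes with the largest log2 fold change, Car4, a carbonic anhydrase held at the cell surface, had 125 and 139 RPM in EpiLCs and was listed at 0 in both ESC libraries (adjusted p = 8.91e-06). Tmem54, Slc35d3 and Sema6a, a semaphorin, were also listed at 0 in both ESC libraries, at 59.6 and 57.3 RPM for Tmem54, 50.1 and 56.5 RPM for Slc35d3 and 47.1 and 54.2 RPM for Sema6a in EpiLCs. Fndc3c1, Tmem59l, Mmp25, Pkdcc, Cthrc1 and Myl9, with log2 fold changes of 5.64, 5.32, 5.16, 5.11, 5.00 and 4.94, complete them beside Sox4, Fgf5, Pim2, Pou3f1 and Sox3. Mmp25 is a metalloproteinase, Pkdcc a secreted kinase and Cthrc1 a secreted glycoprotein.

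Of the 15 lower genes with the largest change, Ephx2, an epoxide hydrolase, had 1.14 and 0 RPM in EpiLCs, against 82.5 and 83.4 RPM in ESCs (−5.84 ± 0.64, adjusted p = 6.72e-06). Ppp1r14d, an inhibitor of protein phosphatase, Lrrc34 and Ubd, a ubiquitin-like modifier, had log2 fold changes of −5.63, −5.55 and −5.51. Of the same 15, Jam2, Tdh, Klf4, Klf2, Tcl1, Tfcp2l1, Esrrb, Nr5a2, Sp5 and Tbx3 are described above. Among tested genes with 10 RPM or more in both ESC libraries, 10 were listed at 0 in both EpiLC libraries, Sp5, Lrrc31, Gjb5, Vwf, Nkx1-2, Gm21283, Serpinb1a, Fgf10, Cdx1 and Glod5. With 10 RPM or more in both EpiLC libraries, 13 were listed at 0 in both ESC libraries, among them Tmem54, Fgf5, Spon1, Slc35d3, Dcn, Car4, Jph4, Enpp2, Klhl14, Jakmip2, Sema6a and Zcchc18. Both sets were chosen by their values, and their counts are a description.

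By change in RPM, the 5 higher genes were Dnmt3b, Actg1, Dut, Hmgn1 and Hmgn2. Dut, the enzyme that clears dUTP, had 912 and 948 RPM in EpiLCs, against 319 and 316 RPM in ESCs (1.55 ± 0.14). Hmgn2, a nucleosome-binding protein, had 667 and 703 RPM in EpiLCs, against 284 and 281 RPM in ESCs (1.27 ± 0.19). Both calls held. Actg1, gamma-actin, had 3189 and 2906 RPM in EpiLCs, against 2109 and 1812 RPM in ESCs (0.64 ± 0.16), with adjusted p-values of 0.146 without ESC replicate 2 and 0.108 without EpiLC replicate 1. Hmgn1 (0.53 ± 0.17) lost its call without each of the 4 libraries (0.148 to 0.185). The 5 lower genes were Dppa5a, Mt2, Hsp90aa1, Spp1 and Apoe. Apoe, a lipid carrier, had 143 and 147 RPM in EpiLCs, against 1272 and 1238 RPM in ESCs (−3.11 ± 0.25). Hsp90aa1 (−0.61 ± 0.15) also lost its call without each of the 4 libraries (0.0596 to 0.0767).

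Markers of other cell types were mostly near 0. A fall in the level of a gene in bulk RNA can come from fewer cells that express it or from less RNA in each cell, and these cannot be told apart. Of 15 listed genes of the 2-cell-like state, 13 are in the files and 12 of them were under 10 RPM in all 4 libraries, 6 of these at 0 throughout. Of 14 primitive endoderm markers, 11 were under 10 RPM in all 4 libraries, of the 3 tested 1 was higher and 1 lower, and Gata6 had no value above 0.555 RPM. Amn, a visceral endoderm protein, was called higher, with 10.3 and 12.8 RPM in EpiLCs, against 0 and 0.555 RPM in ESCs. Apoe, described above, was the lower one and made up most of the sum of the 14, which was 161 to 175 RPM in EpiLCs, against 1249 to 1279 RPM in ESCs. Of 15 mesoderm and primitive streak markers, 13 were under 10 RPM in all 4 libraries, and T had 2.29 and 0.387 RPM in EpiLCs and 2.65 and 2.4 RPM in ESCs. Cdx1, described above, was the only called member of that list, which summed to 7.35 to 13.0 RPM in EpiLCs, against 32.1 to 37.6 RPM in ESCs. Of 13 trophoblast markers, 12 were under 10 RPM in all 4 libraries, and of the 2 tested 0 were called. Cdx2, Elf5 and Gata3 were listed at 0 in all 4 libraries.

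Neural and fibroblast markers were above that level in part. Of 14 neural ectoderm markers, 6 were tested, and the 14 summed to 133 and 134 RPM in EpiLCs, against 88.6 and 89.4 RPM in ESCs. Nes, nestin, was higher, with 42.5 and 44.1 RPM in EpiLCs, against 6.76 and 6.1 RPM in ESCs (2.58 ± 0.35), and Olig2 was lower (−2.77 ± 0.50), though with an adjusted p of 0.159 at a pseudocount of 0.1 RPM. The neural factor Sox1 had no value above 2.32 RPM. Of 16 fibroblast and feeder markers, 9 were tested and 3 were higher. The 16 summed to 93.6 to 96.0 RPM in EpiLCs, against 7.55 to 7.77 RPM in ESCs, and most of it came from Cxcl12 (37 and 37.1 RPM in EpiLCs), Thy1 (24.8 and 22.4 RPM) and Dcn (16.8 and 10.1 RPM). Dcn had an adjusted p of 0.0526 without EpiLC replicate 1, and Thy1 had 0.0606 at a pseudocount of 0.1 RPM. Lum, Postn, Fap and S100a4 were at 0 in all 4 libraries, and the collagen gene Col1a1 had 0.381 and 1.93 RPM in EpiLCs and 0.132 and 0.555 RPM in ESCs. The part of fibroblast-like cells in these values was not tested.

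The uncultured day-4 PGCLCs, which were sorted for the Blimp1-mVenus reporter and are the next stage of the protocol, give the levels after EpiLCs. These levels are set side by side without a test, since the EpiLC libraries would be shared by both steps. Klf2 was about as high there as in ESCs, while the naive gene Esrrb and the core gene Sox2 lay between the levels of EpiLCs and ESCs. Klf2 had 119 and 117 RPM in ESCs, 0.571 and 0.387 RPM in EpiLCs and 149 and 113 RPM in day-4 PGCLCs. Esrrb had 305 and 310.4 RPM in ESCs, 5.52 and 4.26 RPM in EpiLCs and 196 and 177 RPM in day-4 PGCLCs. Sox2 had 641 and 702 RPM in ESCs, 68.4 and 77 RPM in EpiLCs and 395 and 496 RPM in day-4 PGCLCs. In these 3 genes the EpiLC libraries were the lowest of the 3 stages.

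Others stayed low. Klf4 had 142 and 151 RPM in ESCs, 1.52 and 0 RPM in EpiLCs and 5.17 and 4.05 RPM in day-4 PGCLCs. Tbx3 had 42.7 and 43.3 RPM in ESCs, 0.762 and 0 RPM in EpiLCs and 1.41 and 0.579 RPM in day-4 PGCLCs. Klf2 and Klf4 were thus both high in ESCs and near the floor in EpiLCs, while at day 4 Klf2 was high and Klf4 low. Formative genes differed among themselves at day 4. Dnmt3b had 111 and 105 RPM in ESCs, 1414 and 1352 RPM in EpiLCs and 3.29 and 3.09 RPM in day-4 PGCLCs. Otx2 had 7.55 and 4.07 RPM in ESCs, 69.7 and 50.3 RPM in EpiLCs and 0.939 and 1.35 RPM in day-4 PGCLCs. In both genes day-4 PGCLCs were below ESCs as well as EpiLCs. Sox4 kept a part of its EpiLC level, with 0.53 and 0.555 RPM in ESCs, 112 and 123 RPM in EpiLCs and 31 and 30.3 RPM in day-4 PGCLCs. Lef1 was highest at day 4, with 1.59 and 2.22 RPM in ESCs, 17.3 and 23.2 RPM in EpiLCs and 101 and 79 RPM in day-4 PGCLCs. Dusp4 kept the EpiLC direction, with 1.06 and 1.48 RPM in ESCs, 39.4 and 54.2 RPM in EpiLCs and 188 and 225 RPM in day-4 PGCLCs.

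**Figure D5:**
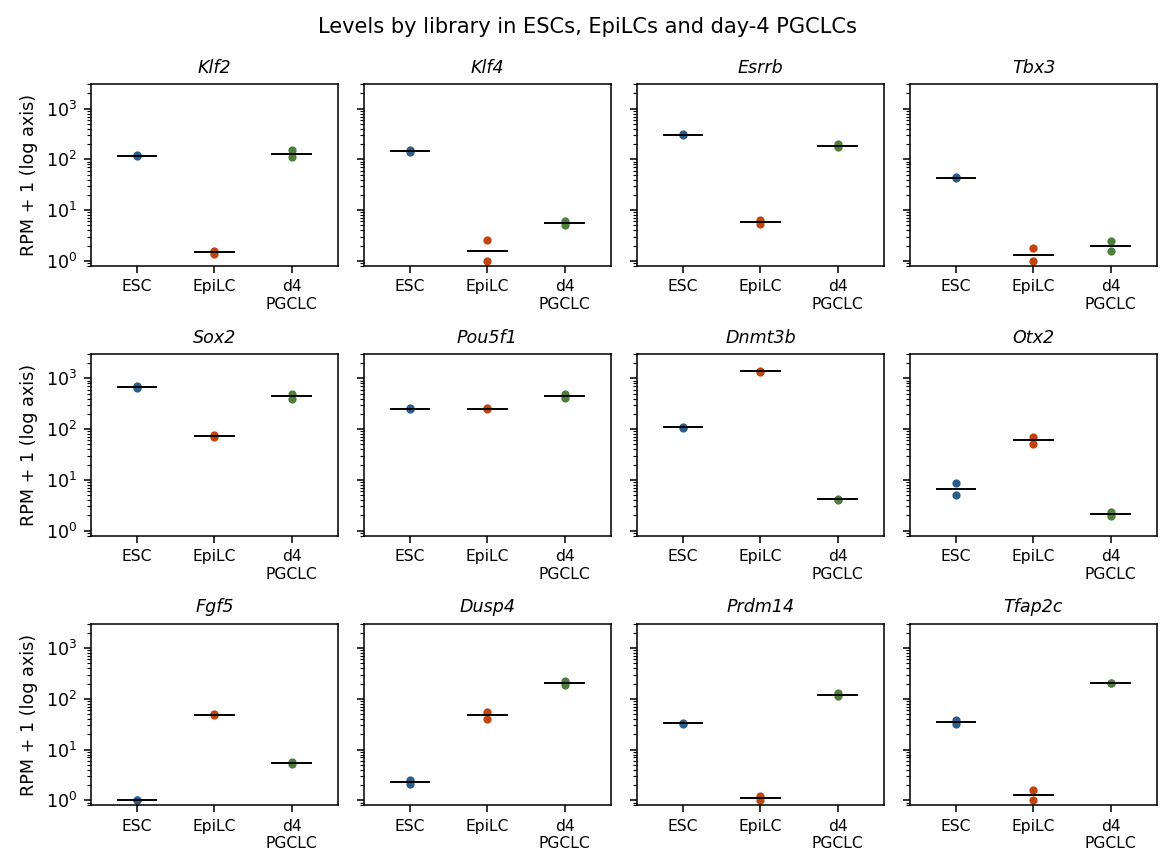
RPM + 1 (log axis) of 12 genes in ESCs, EpiLCs and day-4 PGCLCs, with 1 point for each of the 2 libraries of a stage and a bar at their mean of log2(RPM + 1). Klf2, Esrrb and Sox2 are lowest in EpiLCs, Dnmt3b, Otx2 and Fgf5 are highest there, and Klf4 and Tbx3 are high in ESCs alone among these stages.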

How the data were processed

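SC3-seq libraries were made from 1 ng of RNA per the labels, and each deposited file gives RPM per gene as scaled by the authors, with a total of 999098 to 999617 per library. Per the submitters' processing notes, cutadapt 1.3 and TopHat 1.4.1 were used, with Cufflinks 2.2.0, on mm10. Annotation, counting and strand use were not stated in these sources, so antisense or near-identical genes can share reads. Of 34896 genes per file, 46 had no value and were left out, and values under 0.001 RPM (27 to 53 per library) were set to 0. Low values were whole multiples of a step in 99.5% to 99.8% of cases at a tolerance of 0.02 read, which gave the inferred depths of 2129399 to 7547682 reads across the series.

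Genes with 10 RPM or more in at least 2 libraries were tested with limma 3.58.1 in R 4.3.3 on log2(RPM + 1), with a mean per group over 18 libraries, 9 residual degrees of freedom and an empirical Bayes trend. A gene can pass that filter through the group where it is high, or through groups outside this comparison, as Etv4 and Tdrkh did. Alternatives were other pseudocounts and filters, median-ratio scaling, fewer libraries, a replicate block and voom. Genes were named by size of change among called genes whose groups do not overlap (15 in each direction by log2 fold change and 5 by RPM), by smallest p within 31 lists (526 genes, 523 in the files, 395 tested, 51 in more than 1 list) and by role. The members and lists were chosen with earlier results of these data known. Gene positions and promoters are from RefSeq tables of GRCm38.p6, in which 9501 tested genes matched by NCBI gene number. The Socs3 promoter was chosen after its values were seen, outside the rule, which allowed 2 higher and 2 lower genes that encode transcription factors or methyltransferases. No protein sequences are printed. Some results are not reported here.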

Additional observations from a re-analysis of the deposited data

How the results depend on the processing

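Of the genes named in the text, 180 were called and 0 of these changed sign under any alternative. Calls over all genes stayed within 1.5 times of the 1525 (678 higher, 847 lower) with pseudocounts of 0.1 or 10 RPM, median-ratio scaling, voom on inferred reads (1897) and the replicate block (1621). Under the block 0 of the called named genes lost their call and 3 uncalled ones gained one, while pseudocounts of 0.1 and 10 RPM each took the call from 10 named genes, no filter from 9, voom from 6 and scaling from 2. Without a filter 2256 genes were called (1221 higher, 1035 lower). A filter at 50 RPM tested 4713 genes and called 851 (325 higher, 526 lower). The 4 libraries alone gave 3404 calls (1732 higher, 1672 lower) and the 6 uncultured libraries 3256 (1607 higher, 1649 lower). Leaving out the 3 noisy libraries, chosen after seeing the data as was voom, gave 2821 (1374 higher, 1447 lower), and leaving out 1 of the 4 libraries gave 826 to 942 (357 to 383 higher, 457 to 572 lower). In the last case the lone library is taken to vary like the other groups, and 44 named genes lost their call in at least 1 such fit. Higher calls were 44.5% of all calls, and 54.1% with no filter. The replicate numbers share no stated culture, and their deviations in EpiLCs and ESCs correlated at 0.0045. Whether they pair the samples is not known, and the calls use no pairing. Among uncalled named genes, Pou5f1 changed sign without ESC replicate 1 (−0.00816) and without EpiLC replicate 2 (−0.0407), with a range of −0.0407 to 0.0706 over the 4 libraries left out, and Gbx2 without EpiLC replicate 2, with a range of −0.0499 to 0.300. edgeR and DESeq2, planned as alternatives, were not run, since the deposited values are not whole reads. With 2 libraries a group and 2584594 reads in the shallower EpiLC library, values under about 1.16 RPM there rest on 3 reads or fewer.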

Other observations

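Some of the largest differences lay outside the lists, and the genes in this paragraph were chosen after their values were seen. The metallothionein genes, whose proteins bind zinc and copper, were lower. Mt2 had 449 and 671 RPM in EpiLCs, against 2972 and 2831 RPM in ESCs, a log2 fold change of −2.40 ± 0.35 (limma, adjusted p = 0.000114). Mt1, its neighbour on chromosome 8, had 276 and 429 RPM in EpiLCs, against 1355 and 1323 RPM in ESCs (−1.96 ± 0.44), with an adjusted p of 0.0832 without EpiLC replicate 1. The EpiLC libraries differed from each other in both genes by more than the ESC libraries did. Mdk, midkine, a secreted heparin-binding growth factor, had 378 and 379 RPM in EpiLCs, against 53.8 and 56.2 RPM in ESCs (2.76 ± 0.33). Phc1, a subunit of Polycomb repressive complex 1, had 394 and 422 RPM in EpiLCs, against 124 and 125 RPM in ESCs (1.70 ± 0.21). Cd9, a tetraspanin, had 76.8 and 80.9 RPM in EpiLCs, against 688 and 646 RPM in ESCs (−3.06 ± 0.33). Ckb, the brain-type creatine kinase, had 31.4 and 40.2 RPM in EpiLCs, against 437 and 421 RPM in ESCs (−3.55 ± 0.19). Apart from Mt1, each of these calls held with any 1 of the 4 libraries left out.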
